A study of Mus musculus with 36 samples.

Results

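The conjugation enzymes of liver and kidney that join glucuronic acid, sulfate or glutathione to other molecules were followed across 3 diets in 12-month-old male mice. They were taken as the genes whose symbol marks them as a UDP-glucuronosyltransferase of family 1, 2 or 3 (Ugt), a cytosolic sulfotransferase (Sult) or a glutathione S-transferase of the alpha, kappa, mu, omega, pi, theta or zeta class (Gst), pseudogenes left out. A gene also needed at least 10 reads in at least 5 libraries of the tissue. In liver 36 of 51 such symbols met the rule, among 33495 genes in the table, and in kidney 34 of 58, among 37991 genes. Of 40 distinct symbols, 30 were members in both tissues, 6 in liver alone and 4 in kidney alone. All 36 liver members and all 34 kidney members were tested.

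Conjugation makes lipophilic compounds more soluble in water and marks them for export into bile or urine. Ugt enzymes sit in the endoplasmic reticulum and use UDP sugars. Sult enzymes work in the cytosol with the sulfate donor PAPS. Gst enzymes couple glutathione to electrophiles, among them aldehydes made by lipid peroxidation, and several Gst genes are classical targets of the stress regulator Nrf2. Liver is a major site of conjugation, and the kidney proximal tubule carries a set of its own.

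Total RNA came from livers and kidneys of C57BL/6 mice of the National Institute on Aging colony, taken in the night feeding period between midnight and 3 am. Per tissue there were 7 libraries from mice on a ketogenic diet (10% of energy as protein and 90% as fat), 6 from mice on a high-fat diet (10% protein, 75% fat and 10% carbohydrate) and 5 from mice on a control diet (10% protein, 12% fat and 78% carbohydrate). All mice were first accustomed to the control diet, and the ketogenic and high-fat groups had been switched for 1 week. Libraries are numbered as in their titles, from 0 within each diet. The labels do not state that each library is a separate mouse, so p-values measure the spread between libraries. In whole tissue, fewer cells of a type and less RNA per cell cannot be told apart.

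The liver libraries held 18.9 to 35.9 M (mega) counted reads and the kidney libraries 25.4 to 47.04 M. Mitochondrial genes took 61.7% ± 5.38 of them in liver and 73.3% ± 2.73 in kidney (SD, n = 18 each), which left 7.17 to 14.6 M and 6.48 to 11.9 M reads for nuclear genes. Hepatocyte markers summed to between 31606 and 47384 CPM (the counts-per-million scale) in liver, and proximal tubule markers to between 1318 and 2378 CPM in kidney, so both tissue labels hold. Adipocyte markers in liver summed to 19.3 to 48.0 CPM on the ketogenic diet, 2.40 to 32.9 on the high-fat diet and 1.02 to 18.6 on the control diet, with Adipoq and Plin1 too low to be tested. Intestine and pancreas markers in liver summed to 198 to 623, 128 to 434 and 115 to 346 CPM in the same order, with Prss1, Cpa1 and Amy2b too low to be tested. The part of either list in the results was not tested. Liver libraries high-fat 2, high-fat 3 and control 0 stood apart from the other 15. In genes chosen after their values were seen, Irf7, an interferon-response regulator, measured 26.4, 23.4 and 55.7 CPM in them and 3.84 to 9.52 CPM elsewhere, and Mki67, a marker of dividing cells, 21.7, 7.76 and 17.9 CPM against 0.18 to 2.72 CPM. Summed macrophage markers were also highest there, at 78.7, 76.3 and 97.9 CPM against 32.1 to 76.2 CPM. Their summed hepatocyte markers lay inside the range of the others. Stellate cell and fibroblast markers summed to 150, 182 and 292 CPM in them, against 107 to 169 CPM. Cholangiocyte markers summed to 13.8, 31.9 and 18.0 CPM, against 7.43 to 17.6 CPM. Mitochondrial genes took 66.5%, 55.1% and 49.7% of their reads, against 56.6% to 71.7%. The part of these differences in the results was not tested. Diet differences of Gstm1, Gstm2, Gstm3, Gstm6, Gstp2 and Ugt2b38 in liver are given with and without these libraries in at least 1 comparison. This choice was made after seeing the data.

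The sequences upstream of 5 glutathione transferases are shown because 4 of them followed single liver libraries in the values given further on, and Gstp2 is the near copy of Gstp1. Each is the 250 bases before the RefSeq start on the coding strand of build GRCm38.p6. Gstm3 lies on the minus strand at chr3:107969175-107969424, Gsta1 on the plus strand at chr9:78230419-78230668, Gsta2 on the minus strand at chr9:78347146-78347395, Gstp1 on the minus strand at chr19:4037913-4038162 and Gstp2 on the minus strand at chr19:4042222-4042471. Capitals in Gsta1 and Gsta2 mark the runs of at least 12 bases that both hold in the same order, and capitals in Gstp1 and Gstp2 mark the motif TGAGTCA.
Gstm3: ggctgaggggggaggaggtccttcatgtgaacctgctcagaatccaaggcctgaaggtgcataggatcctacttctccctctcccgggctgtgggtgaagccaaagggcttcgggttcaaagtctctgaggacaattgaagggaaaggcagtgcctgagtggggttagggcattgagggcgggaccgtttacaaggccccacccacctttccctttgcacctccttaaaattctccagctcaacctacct
Gsta1: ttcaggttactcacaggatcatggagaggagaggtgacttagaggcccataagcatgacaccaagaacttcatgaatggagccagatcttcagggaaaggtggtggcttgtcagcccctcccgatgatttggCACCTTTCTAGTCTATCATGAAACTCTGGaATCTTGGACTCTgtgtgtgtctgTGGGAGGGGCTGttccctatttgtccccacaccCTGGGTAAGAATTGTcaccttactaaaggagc
Gsta2: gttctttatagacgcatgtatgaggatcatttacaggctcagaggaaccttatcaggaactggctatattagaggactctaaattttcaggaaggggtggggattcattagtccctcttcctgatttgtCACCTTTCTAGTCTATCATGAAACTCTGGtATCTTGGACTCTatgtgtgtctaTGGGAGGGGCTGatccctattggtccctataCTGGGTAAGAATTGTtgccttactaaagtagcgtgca
Gstp1: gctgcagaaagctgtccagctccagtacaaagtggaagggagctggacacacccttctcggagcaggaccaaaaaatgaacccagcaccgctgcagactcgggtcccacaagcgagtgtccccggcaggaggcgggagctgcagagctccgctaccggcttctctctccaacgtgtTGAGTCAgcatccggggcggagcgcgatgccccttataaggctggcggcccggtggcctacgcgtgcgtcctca
Gstp2: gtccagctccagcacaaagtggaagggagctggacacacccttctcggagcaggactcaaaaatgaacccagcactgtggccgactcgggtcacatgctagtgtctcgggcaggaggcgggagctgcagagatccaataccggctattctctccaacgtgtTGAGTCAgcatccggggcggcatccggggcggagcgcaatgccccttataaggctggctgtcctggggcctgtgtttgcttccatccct
Gsta1 and Gsta2 shared 4 such runs, 68 bases or 27.2% of the window, the longest of 29 bases. The antioxidant response element core, searched only in the form TGACNNNGC on both strands, was in none of the 5 windows. It was in 2 of the 36 members with a promoter in the table (5.56%, Gsta3 and Gstm5) and in 2740 of 27025 promoters of the same kind (10.1%). The AP-1 type motif TGANTCA, which can overlap the first, was in 8 of 36 members (22.2%) and 1852 of all promoters (6.85%). In Gstp1 it began 74 bases before the start and in Gstp2 89 bases before it. These are matches of letters in these windows, with windows of near copies counted separately.

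The copies are close enough to share reads, and this sets how well their counts can be told apart. In GENCODE M21, the coding sequences of Gsta1 and Gsta2 were identical at 653 of 666 compared positions (98%), and those of Gstp1 and Gstp2 at 618 of 630 (98.1%). Coding bases 359 to 508 of the alpha pair and 1 to 150 of the pi pair are printed, with the 6 differing positions of each pair in capitals.
Gsta1: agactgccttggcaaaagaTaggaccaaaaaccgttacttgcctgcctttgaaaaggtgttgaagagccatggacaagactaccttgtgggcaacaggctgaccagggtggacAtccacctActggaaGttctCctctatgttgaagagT
Gsta2: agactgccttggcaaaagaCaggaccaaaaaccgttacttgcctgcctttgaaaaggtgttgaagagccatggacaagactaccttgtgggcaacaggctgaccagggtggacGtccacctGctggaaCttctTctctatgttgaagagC
Gstp1: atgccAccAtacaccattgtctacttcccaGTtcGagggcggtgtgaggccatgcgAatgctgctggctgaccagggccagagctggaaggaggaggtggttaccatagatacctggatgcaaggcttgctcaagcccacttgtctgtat
Gstp2: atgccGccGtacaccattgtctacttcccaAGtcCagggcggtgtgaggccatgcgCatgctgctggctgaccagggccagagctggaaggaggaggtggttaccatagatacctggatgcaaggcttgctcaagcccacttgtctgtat
Of all 50-base windows of the coding sequence, 50.2% in Gsta1 and 50.4% in Gsta2 occurred in another member, as did 70.9% in Gstp1, 44.1% in Ugt2b38, 48.9% in Ugt2b5 and 32.4% in Gstm3. Over the 40 symbols, 15 shared more than 10% of their windows with other members and 21 shared none with them. Genes outside the members were not searched, so a gene with no shared window here can still share reads with one of those. How the counting treated reads that match several places is not given in the sources used here, so counts of these pairs are uncertain between the members of a pair. In the liver table the rows of Gstm3 (chr3:107745251-107772201, mm9, minus strand) and Gstm6 (chr3:107741765-107756354, minus strand) also overlap.

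The tissues differed in which enzymes they held. In liver the mu class summed to 1123 ± 890 CPM and was 88.4% Gstm1, the alpha class to 969 ± 157 CPM and 95.7% Gsta3, the Ugt2 family to 1057 ± 211 CPM with Ugt2b34 its largest part at 31.3%, and the sulfotransferases to 223 ± 46.0 CPM, 52.7% of it Sult1a1 (SD, n = 18). In kidney the Ugt3 family summed to 673 ± 174 CPM, 85.4% of it Ugt3a2, which in human uses UDP-glucose and UDP-xylose. Kidney sulfotransferases summed to 293 ± 56.5 CPM, of which Sult1d1, a mouse enzyme for catecholamines, made up 90.1%. Liver and kidney were counted separately against different gene models, so levels set across them are descriptive.

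Per kilobase of gene model, the highest liver members were Gstm1 at 712 CPM per kb and Gsta3 at 666, followed by Gstz1, the maleylacetoacetate isomerase of tyrosine breakdown, at 237. Ugt2b5 at 114 and Ugt2b36 at 109 led the liver Ugt genes, and Sult1a1, a phenol sulfotransferase, at 81.4 and Sult1d1 at 32.1 led the liver Sult genes. In kidney the 2 highest of each class were Ugt3a2 at 185 and Ugt2b38 at 103, Gstm1 at 131 and Gstz1 at 60.1, and Sult1d1 at 107 and Sult1c2 at 11.7 CPM per kb, and other members such as Ugt3a1 at 36.9 and Gsta3 at 28.3 lay above Sult1c2. Members of the Ugt2 cluster on chromosome 5 went opposite ways between the tissues. Ugt2b38 averaged 0.591 CPM per kb in liver and 103 in kidney, and Ugt2b37 0.199 in liver and 17.6 in kidney. Ugt2b5 averaged 114 in liver and 0.416 in kidney, and Ugt2a3, which takes bile acids in human, 48.1 and 0.231.

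**Figure D1:**
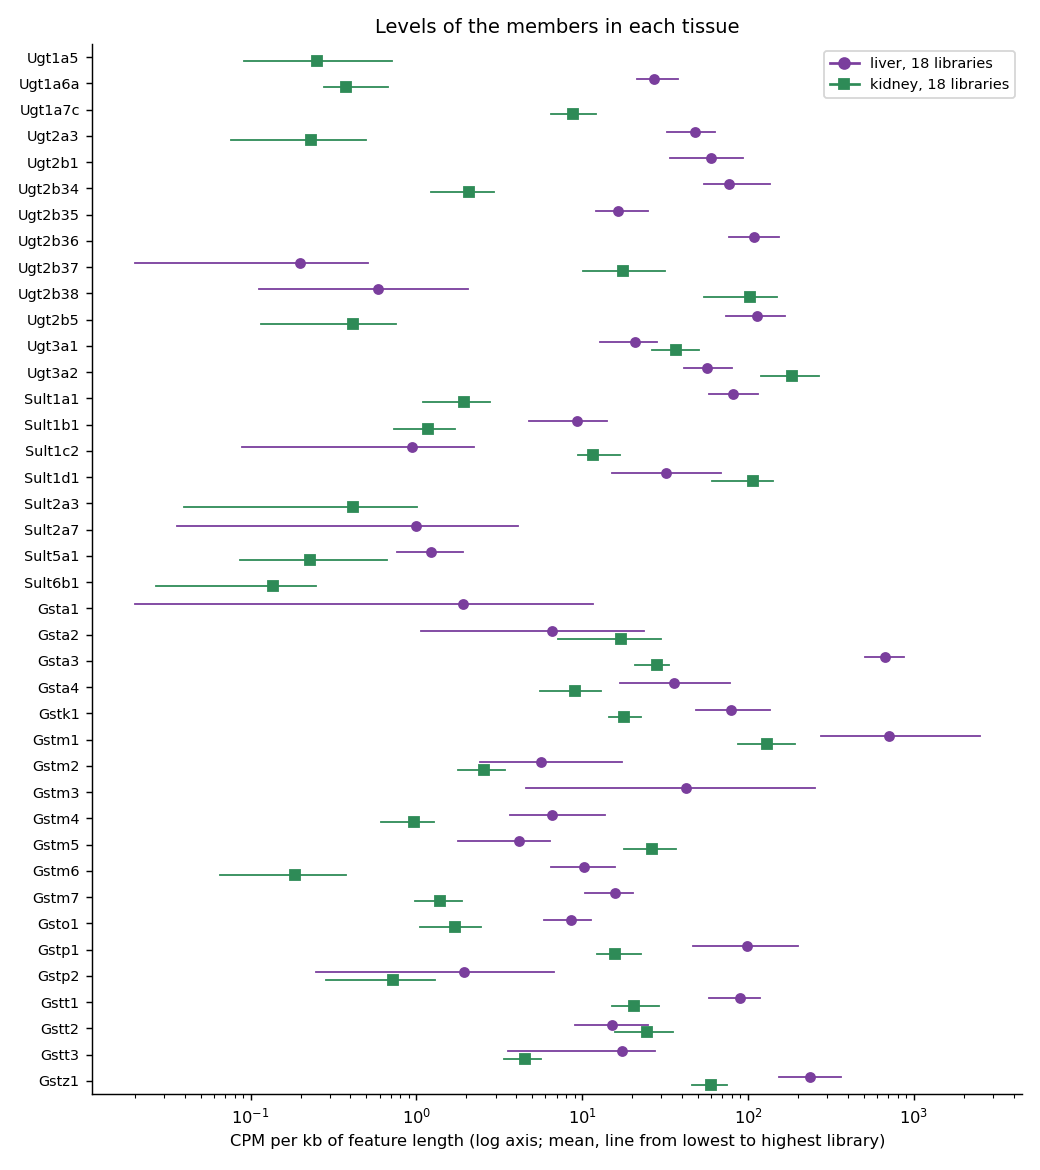
Mean CPM per kb of each member in liver and kidney on a log axis, with a line from the lowest to the highest library. A library with no read is drawn from 0.02 (Gsta1 and Ugt2b37 in liver). Gstm1 and Gsta3 lead in liver at 712 and 666, and Ugt3a2 leads in kidney at 185.

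The Ugt1 locus, whose first exons are spliced to shared last exons, was counted in different ways. The liver table gave it 1 row, named Ugt1a6a, over chr1:89951963-90116577 (mm9) with 12741 exon bases and 273 to 482 CPM. The kidney table divided it into 9 rows that shared 48.8% to 78.3% of their exon bases with another of the rows, and 3 of these were members. Ugt1a7c held 538 to 1395 reads per kidney library, Ugt1a6a 40 to 122 and Ugt1a5 7 to 42, so the division between them is uncertain.

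No liver member differed between diets at an adjusted p under 0.05 (edgeR's quasi-likelihood test, Benjamini-Hochberg over 13374 genes), and neither did any other liver gene. That is 0 of 36 members against a background of 0% called in each of the 3 comparisons and in the joint test of any diet difference. DESeq2 also called 0 members in each of these, while over all liver genes it called 76 genes for ketogenic against control, 1 in each of the other pairs of diets and 29 (0.217%) in the joint test. By limma-voom 0 liver genes were called, members included. At an unadjusted p under 0.05, 6 members passed for ketogenic against control diet (9.38% of all genes did), 2 for high-fat against control (7.1%), 7 for ketogenic against high-fat (3.19%) and 9 in the joint test (6.8%). The median member had a log2 difference of -0.06 for ketogenic against control, with 16 of 36 above 0, beside -0.02 over all genes. For high-fat against control the member median was -0.02, beside -0.02 over all genes, and for ketogenic against high-fat -0.07, beside 0.0084.

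**Figure D2:**
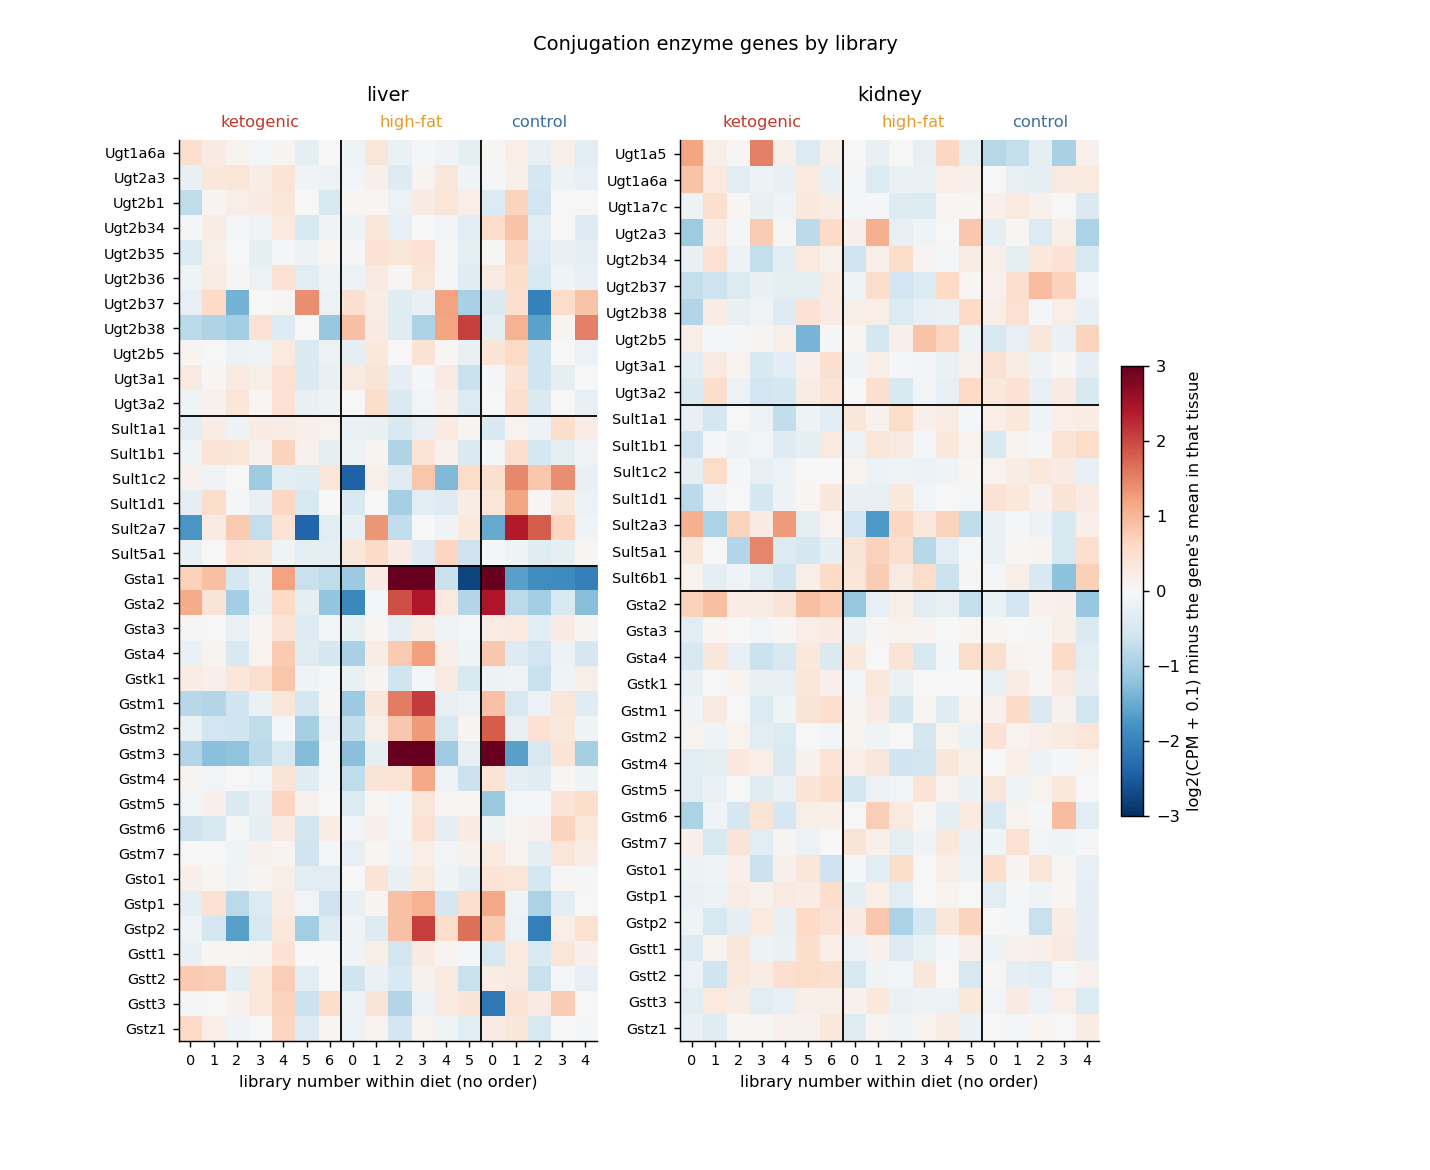
Level of each member in each library as log2(CPM + 0.1) minus the gene's mean over its tissue, on a colour scale limited to -3 and 3, with libraries ordered ketogenic, high-fat and control. In liver the columns of high-fat 2, high-fat 3 and control 0 stand out for 8 glutathione transferases of the alpha, mu and pi classes; Gstm3 reached 274, 331 and 215 CPM there.

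The largest spread in liver followed single libraries. Gstm3, a mu-class enzyme, measured 274 CPM in high-fat 2, 331 CPM in high-fat 3 and 215 CPM in control 0. In the other libraries it measured 7.52 to 18.1 CPM (median 10.1) on the ketogenic diet, 7.72, 15.2, 8.78 and 15.6 CPM on the high-fat diet and 6.00, 13.3, 24.8 and 9.31 CPM on the control diet. The 3 libraries stood far above all others, which overlapped across the diets. In reads, they held 9969, 11803 and 6340 of Gstm3, and the other libraries 100 to 898.

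Gstm1, the most abundant mu-class enzyme, followed the same libraries, with 2367 CPM in high-fat 2, 3503 in high-fat 3 and 1502 in control 0. Its remaining libraries ran from 446 to 1065 CPM on the ketogenic diet, 385 to 1036 on the high-fat diet and 591 to 1051 on the control diet. Gstm2 measured 14.5, 19.99 and 29.3 CPM in these 3 libraries, against 4.04 to 11.2 CPM in all others. Across the 36 members, the 3 highest libraries were these 3 for 8 genes, namely Gsta1, Gsta2, Gsta4, Gstm1, Gstm2, Gstm3, Gstm4 and Gstp1, and for none were they the 3 lowest. Among 84 genes of the pathway lists they were the 3 highest for 3. The libraries were picked after seeing the data and the share over all liver genes was not counted, so whether 8 of 36 is unusual was not tested.

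Values of Gsta1, Gsta2, Gsta4, Gstm4, Gstp1 and Gstt3 in liver are given because of this pattern, a choice made after they were seen. Gsta1 measured 7.48, 11.2 and 7.54 CPM in high-fat 2, high-fat 3 and control 0 and 0 to 1.47 CPM elsewhere. Gsta2 measured 19.6, 27.3 and 27.9 CPM in them, against 1.25 to 11.1 CPM. Gstp1, the main pi-class enzyme, measured 126, 139 and 150 CPM, against 35.1 to 97.0 CPM. Gsta4, which conjugates the lipid aldehyde 4-hydroxynonenal, was closest to the others, with 51.8, 70.4 and 52.1 CPM against 15.3 to 51.7. Gstm4 was as close, with 14.2, 23.5 and 14.2 CPM against 6.26 to 14.1.

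Other members did not share the pattern. Gsta3, the most abundant alpha enzyme, measured 752, 1062 and 1071 CPM in these libraries and 704 to 1218 CPM in the others. Gstt3, a theta-class enzyme, measured 20.4, 33.2 and 8.42 CPM, against 24.2 to 64.2 CPM. The kidney libraries with the same titles were the 3 highest for 0 of 34 kidney members, although kidney Irf7 measured 10.1, 9.32 and 9.36 CPM in them and 1.04 to 2.67 CPM in the others. Kidney Mki67 did not set them apart, at 3.56, 2.50 and 1.96 CPM against 1.18 to 4.21 CPM. Among 84 genes of the pathway lists tested in liver, the 3 libraries were the highest for Nqo1, Hmox1 and Abcc4 and the lowest for Slc22a7 and Slco1a1. What sets these libraries apart was not tested.

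**Figure D3:**
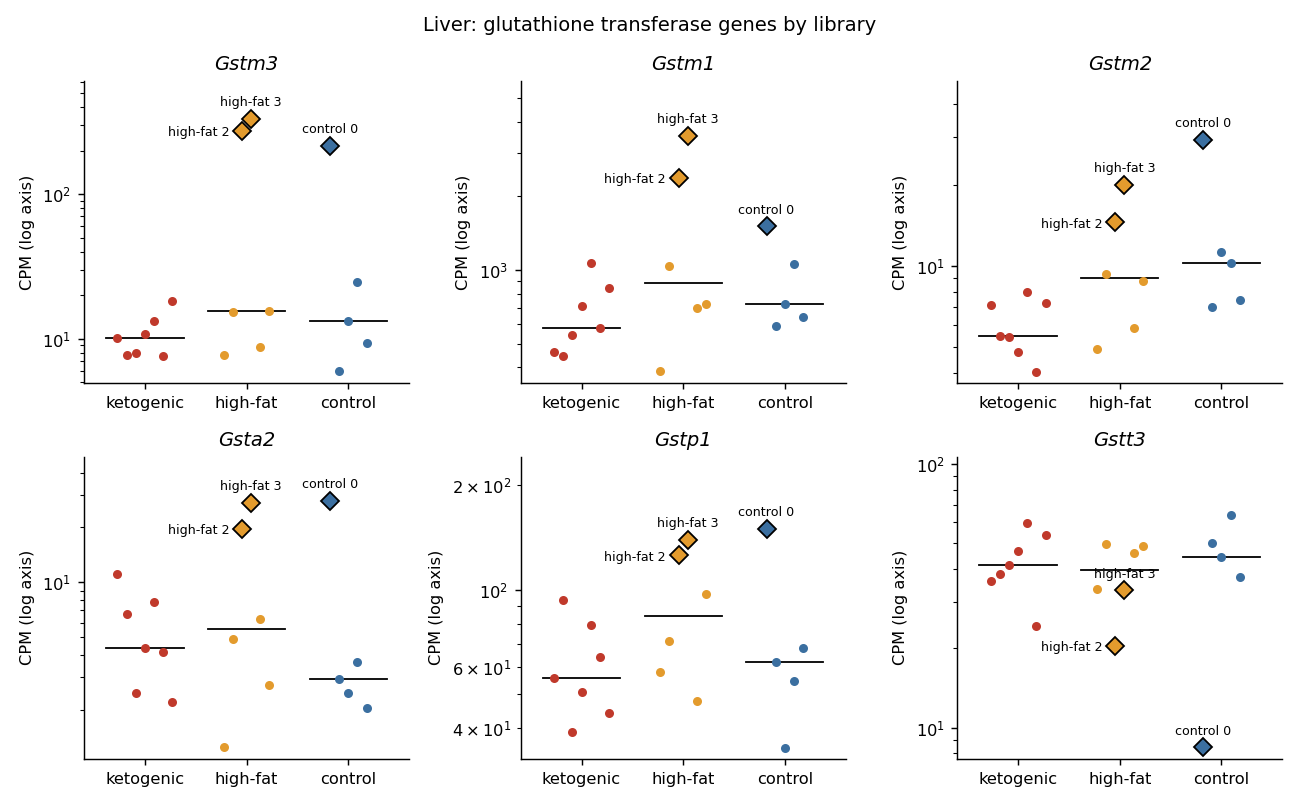
Liver CPM of glutathione transferases by library on a log axis, grouped ketogenic, high-fat and control, with lines at the group medians and diamonds for high-fat 2, high-fat 3 and control 0. The diamonds lie above all other points for Gstm3 (215 to 331 CPM) and Gstm1 (1502 to 3503 CPM).

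The diet comparisons of Gstm3 and Gstm1 turned on the same libraries. Gstm3 averaged 10.8 ± 3.84 CPM in ketogenic livers (SD, n = 7), 109 ± 151 in high-fat livers (n = 6) and 53.8 ± 90.6 in control livers (n = 5). Its log2 difference was -3.33 ± 1.06 for ketogenic against high-fat (edgeR adjusted p = 0.999) and -2.32 ± 1.05 for ketogenic against control (edgeR adjusted p = 0.513), the errors being standard errors. Without the 3 libraries these were -0.13 ± 0.34 (edgeR adjusted p = 0.998) and -0.31 ± 0.34 (edgeR adjusted p = 0.908). Gstm1 averaged 663 ± 225, 1452 ± 1221 and 903 ± 380 CPM on the ketogenic, high-fat and control diets. Its log2 difference for ketogenic against high-fat was -1.13 ± 0.41 with all libraries and -0.10 ± 0.25 without the 3. For high-fat against control it was 0.69 ± 0.44 with all libraries and -0.08 ± 0.29 without them, so its sign turned. The 3 libraries were picked after seeing the data and were the highest for both genes. Smaller differences without them are therefore no independent check.

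Gstm2 and Gstm6 had lower means in ketogenic than in control livers, short of the adjusted threshold with and without these libraries. Gstm2 averaged 6.02 ± 1.47 CPM in ketogenic, 10.6 ± 5.71 in high-fat and 13.1 ± 9.26 in control livers. All 7 ketogenic libraries lay below the control mean, and the groups overlapped at 8.01 CPM in the highest ketogenic and 7.02 in the lowest control library. The log2 difference for ketogenic against control was -1.12 ± 0.35 (unadjusted p = 0.00464, edgeR adjusted p = 0.341), and without the 3 libraries -0.58 ± 0.21 (edgeR adjusted p = 0.441). Gstm6 ran from 15.9 to 29.3 CPM (median 20.3) on the ketogenic diet and from 21.9 to 38.6 (median 26.98) on the control diet, a log2 difference of -0.40 ± 0.18, and -0.49 ± 0.17 without the 3.

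Gstp2, the lesser pi-class gene with 4 to 165 reads per library, ran from 0.262 to 1.29 CPM (median 0.703) in ketogenic, from 0.757 to 4.62 (median 1.74) in high-fat and from 0.1705 to 1.83 (median 1.19) in control livers. It lay below the high-fat mean in all 7 ketogenic libraries, with the ranges overlapping between 0.757 and 1.29 CPM. Its log2 difference for ketogenic against high-fat was -1.60 ± 0.46, the smallest unadjusted p of any liver member in that comparison (0.00208, edgeR adjusted p = 0.999). For high-fat against control it was 0.99 ± 0.50. Without the 3 libraries the difference for ketogenic against high-fat was -1.20 ± 0.46. Reads of Gstp2 are hard to separate from Gstp1, as the printed coding bases show.

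Gstk1 and Gstt2 had higher means on the ketogenic diet, short of the adjusted threshold. Gstk1, the kappa-class enzyme of mitochondria and peroxisomes, ran from 61.7 to 120.1 CPM (median 78.6) in ketogenic, 44.8 to 81.2 (median 61.8) in high-fat and 42.8 to 76.8 (median 62.6) in control livers. All 7 ketogenic libraries were above the control mean and 6 of 7 above the high-fat mean, and the groups overlapped. The log2 difference was 0.44 ± 0.18 against control (unadjusted p = 0.0212, edgeR adjusted p = 0.459) and 0.43 ± 0.17 against high-fat (edgeR adjusted p = 0.999). Gstt2, a theta-class enzyme, ran from 10.4 to 22.3 CPM in ketogenic and from 8.14 to 15.5 CPM in high-fat livers, with a log2 difference of 0.56 ± 0.22.

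Among liver sulfotransferases, Sult1d1, Sult1c2 and Sult2a7 had lower means on both fat-rich diets than on the control diet, short of the adjusted threshold. Sult1d1 ran from 51.3 to 109 CPM (median 69.8) on the ketogenic, 35.5 to 83.3 (median 55.3) on the high-fat and 63.3 to 162 (median 89.7) on the control diet. All 6 high-fat libraries were below the control mean, and the log2 difference for high-fat against control was -0.71 ± 0.24 (unadjusted p = 0.00756, edgeR adjusted p = 0.681). Sult1c2 had only 3 to 114 reads per library. It averaged 1.02 ± 0.316 CPM on the ketogenic, 1.08 ± 0.764 on the high-fat and 2.20 ± 0.985 on the control diet, with log2 differences of -1.11 ± 0.45 for ketogenic and -1.01 ± 0.47 for high-fat against control. Sult2a7, of the hydroxysteroid sulfotransferase family, averaged 0.485 ± 0.375, 0.692 ± 0.451 and 1.44 ± 1.34 CPM in the same order, from 1 to 56 reads, with log2 differences of -1.56 ± 0.66 and -1.05 ± 0.68. The control libraries of both genes overlapped those of the other diets. Sult5a1 averaged 2.13 ± 0.495, 2.45 ± 0.825 and 1.90 ± 0.229 CPM, a log2 difference of 0.36 ± 0.26 for high-fat against control. Sult2a1, no member for its low counts, was counted 74 times in control 0, once in high-fat 2 and in no other liver library.

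Liver glucuronosyltransferases lay on both sides of 0. The log2 differences of the 11 liver Ugt genes for ketogenic against control had a median of -0.0099, with 5 above 0. The lowest of them was Ugt2b38, with 5 to 106 reads per library, at -1.03 ± 0.55. It ran from 0.329 to 1.19 CPM (median 0.446) in ketogenic, 0.392 to 3.85 (median 1.36) in high-fat and 0.213 to 2.604 (median 0.911) in control livers, with all groups overlapping. For ketogenic against high-fat its log2 difference was -1.38 ± 0.52, and -1.80 ± 0.47 without the 3 libraries (edgeR adjusted p = 0.998). The abundant Ugt2b5 averaged 202 ± 32.4, 220 ± 45.0 and 225 ± 70.0 CPM in ketogenic, high-fat and control livers, and Ugt2b36 223 ± 42.4, 225 ± 42.3 and 226 ± 63.8 CPM.

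**Figure D4:**
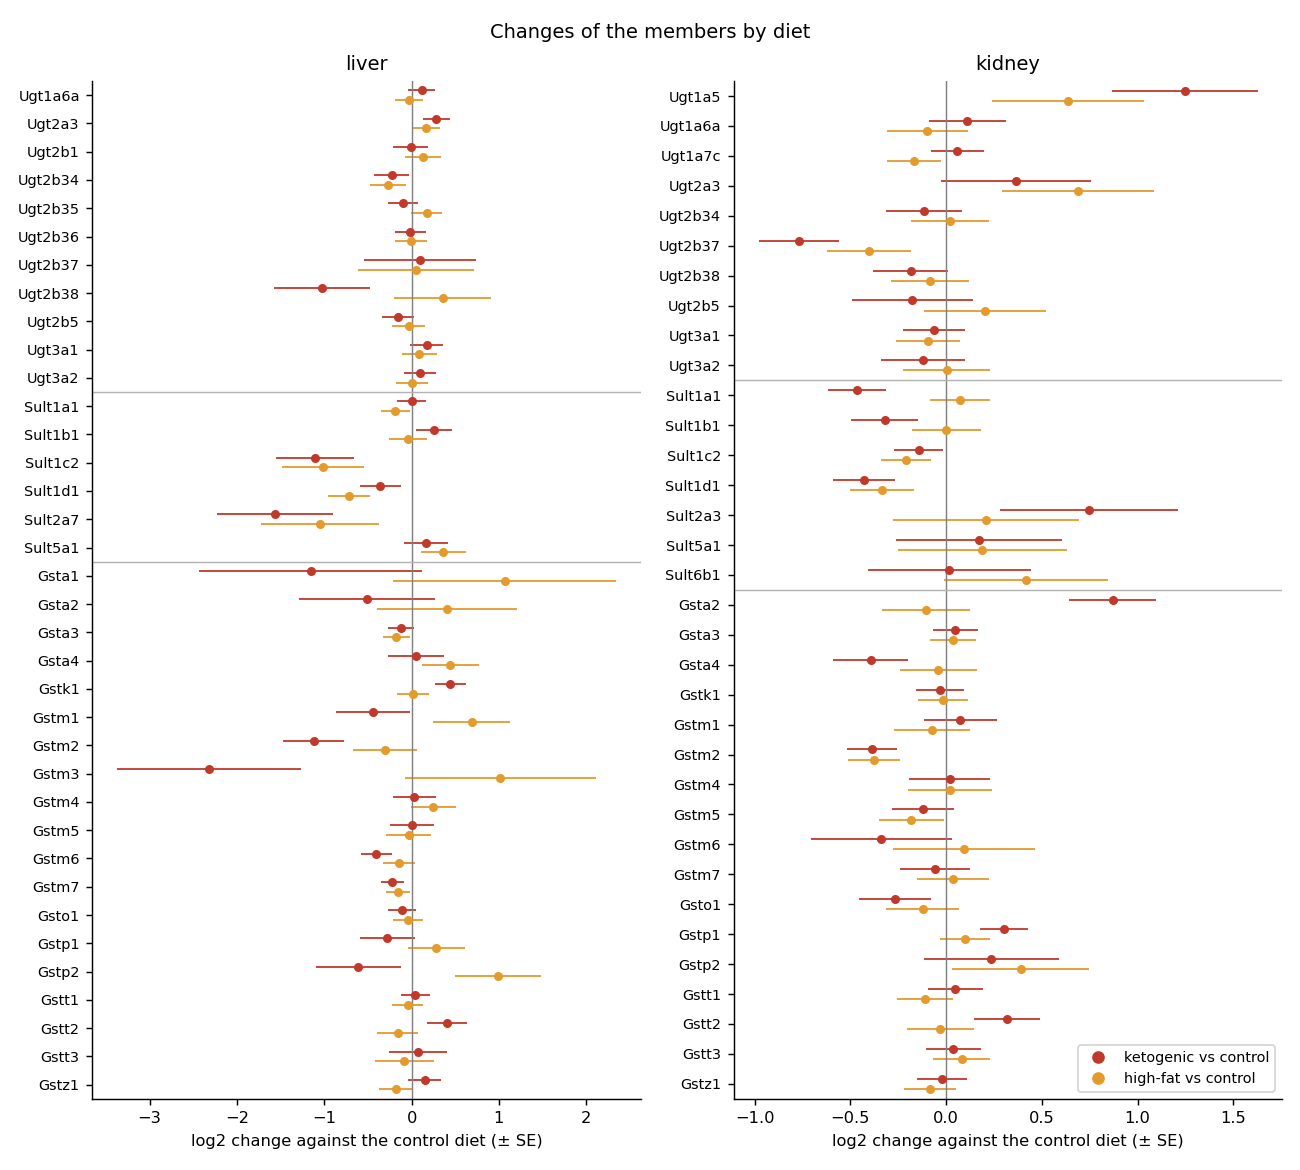
Log2 differences of all members against the control diet with standard errors, ketogenic and high-fat, by tissue. In liver the widest bars belong to Gsta1 (-1.16 ± 1.27 for ketogenic), followed by Gstm3 (-2.32 ± 1.05). The Gsta1 value includes control 0 at 7.54 CPM, while its medians were 0.489 CPM in ketogenic and 0.0852 CPM in control livers. In kidney Gsta2 (0.87 ± 0.23) and Ugt2b37 (-0.77 ± 0.21) lie farthest from 0 in units of their error.

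In kidney 0 of 34 members passed the adjusted threshold of 0.05 in any comparison (edgeR, over 15074 genes). Of all kidney genes, 0.325% were called for ketogenic against control, 0.0133% for high-fat against control, 0.0464% for ketogenic against high-fat and 0.219% in the joint test. At an unadjusted p under 0.05, 7 members passed for ketogenic against control (8.35% of all genes), 1 for high-fat against control (5.73%), 3 for ketogenic against high-fat (4.07%) and 6 in the joint test (6.52%). DESeq2 called 2 members for ketogenic against control, Gsta2 and Ugt2b37 (0.697% of all genes), and 1 for ketogenic against high-fat, Gsta2 (0.199%). DESeq2 called 0 for high-fat against control, and limma-voom called 0 members in all 3 pairwise comparisons. The median log2 difference of members was -0.03 for ketogenic against control (0.02 over all genes), -0.0077 for high-fat against control (0.01) and -0.02 for ketogenic against high-fat (0.0064).

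Gsta2, an alpha-class enzyme that also reduces lipid peroxides, was the kidney member that separated by diet. It measured 21.6 to 35.03 CPM (median 30.05) in ketogenic kidneys, 8.38 to 20.9 CPM (median 15.3) in high-fat kidneys and 16.1, 12.4, 20.4, 20.8 and 8.36 CPM in control kidneys. Every ketogenic library was above every high-fat and every control library, which overlapped each other. Such a separation, ketogenic above the other diet, held for 1 of 34 members and 0.531% of all genes against control, and for 1 of 34 and 0.133% against high-fat. The log2 difference was 0.87 ± 0.23 against control, or 1.83-fold (unadjusted p = 0.00107, edgeR adjusted p = 0.155), and 0.98 ± 0.22 against high-fat, or 1.97-fold (unadjusted p = 0.000211, edgeR adjusted p = 0.159). For high-fat against control it was -0.10 ± 0.23. Over 27 other settings each, the ketogenic differences ran from 0.71 to 0.98 and from 0.86 to 1.14. In the joint test of the 3 diets its edgeR adjusted p was 0.0803. Proximal tubule markers summed to 1675 to 2359 CPM in ketogenic, 1507 to 2267 in high-fat and 1318 to 2378 in control kidneys, and markers from the loop of Henle to the collecting duct to 725 to 1177, 772 to 1467 and 1033 to 1397 CPM. Their part in the kidney differences was not tested.

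Its near copy Gsta1 was at most at 5 reads in a kidney library and was no member there. Gsta3 averaged 39.9 ± 5.22 CPM in ketogenic, 39.5 ± 2.87 in high-fat and 38.6 ± 5.77 in control kidneys. Gsta4 averaged 7.36 ± 2.23, 9.40 ± 2.29 and 9.68 ± 2.38 CPM in the same order, a log2 difference of -0.35 ± 0.19 for ketogenic against high-fat. In liver Gsta2 averaged 5.53 ± 3.20 CPM on the ketogenic, 10.3 ± 10.6 on the high-fat and 7.81 ± 11.3 on the control diet, with overlapping libraries.

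Ugt2b37, a glucuronosyltransferase, had a lower mean in ketogenic kidneys, short of the adjusted threshold. It ran from 19.2 to 38.5 CPM (median 25.7) on the ketogenic diet and from 21.2 to 47.5 (median 30.7) on the high-fat diet, and measured 34.6, 44.5, 60.1, 50.7 and 29.5 CPM on the control diet. All 7 ketogenic libraries were below the control mean, and 1 of them, library 6 at 38.5 CPM, overlapped the control range. The log2 difference was -0.77 ± 0.21 for ketogenic against control, or 0.587-fold (unadjusted p = 0.00145, edgeR adjusted p = 0.187), and -0.40 ± 0.22 for high-fat against control. For ketogenic against high-fat it was -0.37 ± 0.20. Its neighbour Ugt2b38, the main kidney Ugt2 gene, averaged 183 ± 52.8, 196 ± 52.5 and 208 ± 38.0 CPM on the ketogenic, high-fat and control diets, and Ugt3a2 545 ± 174, 594 ± 172 and 592 ± 148 CPM. Ugt2a3 had 5 to 26 reads and averaged 0.478 ± 0.243, 0.605 ± 0.283 and 0.364 ± 0.132 CPM.

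**Figure D5:**
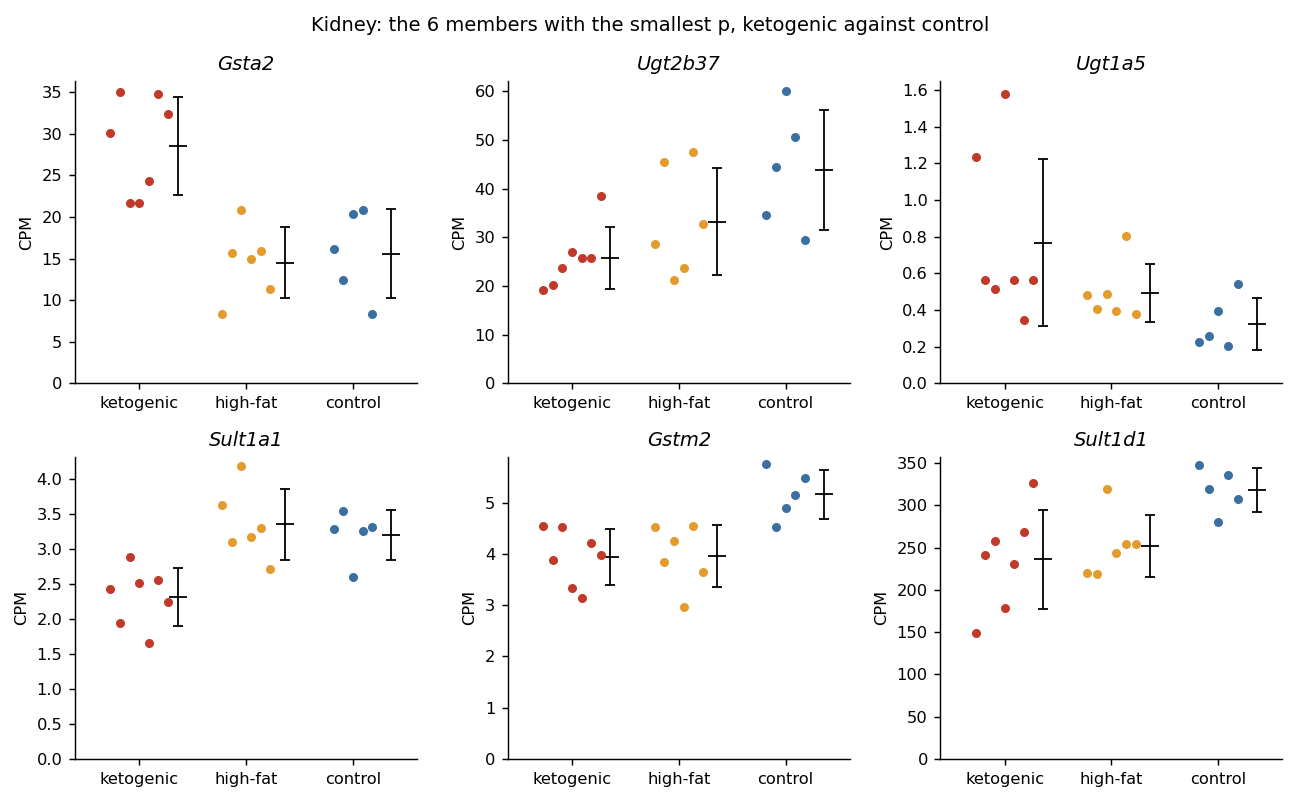
Kidney CPM of members by library, grouped ketogenic, high-fat and control, with the mean and SD of each group. For Gsta2 the 7 ketogenic points (21.6 to 35.03 CPM) lie above all points of the other diets (at most 20.9 CPM), and for Ugt2b37 the control points reach the highest values (60.1 CPM).

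Sult1a1, Sult1b1, Sult1c2 and Sult1d1 had lower means in ketogenic than in control kidneys, none past the adjusted threshold. Sult1a1 measured 1.66 to 2.89 CPM (median 2.43) in ketogenic kidneys, 2.72 to 4.198 (median 3.24) in high-fat kidneys and 3.30, 3.55, 2.61, 3.27 and 3.31 CPM in control kidneys. All 7 ketogenic libraries were below both other means, with small overlaps. Its log2 difference was -0.47 ± 0.15 against control (unadjusted p = 0.0052, edgeR adjusted p = 0.325) and -0.54 ± 0.15 against high-fat (unadjusted p = 0.00104, edgeR adjusted p = 0.382). Sult1d1 averaged 236 ± 58.7 CPM in ketogenic, 252 ± 36.8 in high-fat and 318 ± 26.04 in control kidneys. It was below the control mean in 6 of 7 ketogenic and 5 of 6 high-fat libraries, with log2 differences of -0.43 ± 0.16 and -0.34 ± 0.17 against control. Sult1b1, which takes phenols and thyroid hormones, averaged 2.85 ± 0.598, 3.55 ± 0.542 and 3.57 ± 0.962 CPM, and Sult1c2 21.3 ± 4.69, 20.3 ± 1.71 and 23.5 ± 3.30 CPM in the same order of diets. Over the 7 kidney Sult genes the median log2 difference for ketogenic against control was -0.14, with 3 of 7 above 0.

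The other kidney members with small unadjusted p included Gstm2 and Ugt1a5. Gstm2 averaged 3.95 ± 0.546 CPM in ketogenic, 3.97 ± 0.606 in high-fat and 5.17 ± 0.478 in control kidneys. The highest ketogenic library and the highest high-fat library each measured 4.54 CPM, as did the lowest control library, so that the fat-rich diets met the control range only at its edge. The log2 difference against control was -0.39 ± 0.13 for ketogenic (edgeR adjusted p = 0.359) and -0.37 ± 0.14 for high-fat (edgeR adjusted p = 0.744). Ugt1a5 averaged 0.766 ± 0.455, 0.491 ± 0.158 and 0.324 ± 0.142 CPM in the same order, a log2 difference of 1.25 ± 0.38 for ketogenic against control (edgeR adjusted p = 0.252), from few reads and a row that shares 59.5% of its bases with other Ugt1 rows. Gstp1 averaged 13.2 ± 2.31, 11.4 ± 1.60 and 10.7 ± 1.17 CPM, and Gstt2 38.5 ± 9.86, 30.3 ± 6.77 and 30.9 ± 3.98 CPM. The abundant Gstm1 averaged 191 ± 42.7, 172 ± 33.3 and 181 ± 58.7 CPM and Gstz1 100.5 ± 15.7, 96.2 ± 14.4 and 102 ± 7.44 CPM.

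The genes that supply, move and control conjugation were read from 9 lists, with 84 genes tested in liver and 86 in kidney. For ketogenic against control, 0 of the 84 passed in liver (edgeR), and in kidney 2 of 86 did, both among the 7 tested reporter genes of xenobiotic, lipid and stress regulators. They were Pdk4, the kinase that restrains pyruvate oxidation, at 36.4 ± 8.49 CPM in ketogenic and 6.24 ± 0.787 CPM in control kidneys (log2 difference 2.55 ± 0.16, edgeR adjusted p = 7.89e-11), and Cyp4a14, a fatty acid hydroxylase, at 197 ± 63.2 and 12.1 ± 8.06 CPM (4.02 ± 0.72, edgeR adjusted p = 0.0234). Both are textbook targets of the receptor PPAR alpha.

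In each other list the genes of smallest p are given without a call. For the donors, liver Ugp2, which makes UDP-glucose, had a log2 difference of -0.41 ± 0.17 for ketogenic against control and Ugdh, which oxidises it to UDP-glucuronic acid, -0.05 ± 0.17, while in kidney they were at -0.19 ± 0.16 and -0.11 ± 0.13. The sulfate transporter Slc26a1 was at 0.11 ± 0.14 in liver and 0.28 ± 0.14 in kidney, and the PAPS transporters at 0.30 ± 0.16 for liver Slc35b3 and -0.30 ± 0.21 for kidney Slc35b2. In glutathione supply, liver Ggt6 was at -0.63 ± 0.20 and Cth, which makes cysteine, at 0.50 ± 0.22; kidney Oplah, which returns 5-oxoproline to glutamate, was at 0.44 ± 0.12 (edgeR adjusted p = 0.145) and Gclc, the first enzyme of glutathione synthesis, at -0.23 ± 0.13. None of these passed the adjusted threshold.

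Among other transferases, liver Ptges was at -1.79 ± 0.58 from under 1 CPM, Gstcd at -0.52 ± 0.36, Nat8, which acetylates cysteine conjugates, at -0.65 ± 0.28 and Tpmt at 0.27 ± 0.17. Kidney Mgst1, the microsomal glutathione transferase, was at 0.31 ± 0.15, Lancl1 at 0.13 ± 0.12, Nat2 at -0.54 ± 0.18 and Glyat at 0.20 ± 0.13. Of the transporters, liver Abcc1, an exporter of glutathione conjugates, averaged 2.32 ± 0.362 CPM on the ketogenic and 1.37 ± 0.611 on the control diet (0.76 ± 0.26, edgeR adjusted p = 0.381), and Slco1a4 33.2 ± 7.55 and 23.2 ± 4.78 CPM (0.52 ± 0.20, edgeR adjusted p = 0.438). Each was above the control mean in 7 of 7 ketogenic libraries. Kidney Slc22a7, an organic anion transporter, averaged 6.76 ± 2.27 and 12.5 ± 5.74 CPM (-0.89 ± 0.31), below the control mean in 7 of 7, and Slc22a8 was at 0.41 ± 0.22.

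The deconjugating enzymes Gusb and Arsa were at 0.01 ± 0.18 and -0.03 ± 0.20 in liver and at 0.01 ± 0.16 and 0.01 ± 0.29 in kidney. Of the regulators, 0 of 19 tested in liver and 0 of 18 in kidney passed, with liver Arnt at -0.27 ± 0.13, liver Ahr at 0.22 ± 0.12, kidney Mafg, a partner of Nrf2, at 0.41 ± 0.11 (edgeR adjusted p = 0.123) and kidney Esr1 at -0.30 ± 0.13. In liver the reporters Cyp4a14 and Pdk4 were at 1.70 ± 0.42 (edgeR adjusted p = 0.224) and 0.68 ± 0.35, above the control mean CPM in 7 of 7 and 6 of 7 ketogenic libraries.

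The authors' deposited table gives a false discovery rate per gene and comparison. At the same threshold, it calls 2 of 36 liver members for ketogenic against control, with Gstm3 at 1.23e-18 and Gstm2 at 0.0011. For high-fat against control the authors' deposited table calls 1, Gstm3 at 0.00539. For ketogenic against high-fat the authors' deposited table calls 8, which are Gstm3, Gsta1, Gstm1, Gsta2, Gstp2, Gstm2, Gstp1 and Ugt2b38. Of these 8, all but Gstp2 and Ugt2b38 are among the members whose 3 highest libraries were high-fat 2, high-fat 3 and control 0. The share of all liver genes that the authors' deposited table calls was not counted. Whether its counts of members are unusual was therefore not tested. For any diet difference, 0 liver members pass in the authors' deposited table, and in kidney 0 of 33 members with a value pass in each of its 3 comparisons.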

How the data were processed

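Total RNA was amplified from random and poly-T primers with a NuGEN kit, per the labels' protocols, which do not state strand. The submitters' processing notes name featureCounts, Subread, edgeR, DESeq and TopHat2 2.0.11, with build mm9, and do not say how each was used. The authors deposited raw, whole read counts per gene for both tissues, per the file headers, so no expected or estimated counts had to be rounded. The false discovery rates (adjusted p-values) of the authors' deposited table were read as they stand. A further 90 per-sample columns were not used.

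Counts were normalised with TMM in edgeR 4.0.16 (R 4.3.3), genes were filtered with filterByExpr at a minimum count of 10, and each tissue was fitted alone over its 18 libraries, with 13374 genes tested in liver and 15074 in kidney. Robust quasi-likelihood tests compared the 3 diets in pairs and jointly, with Benjamini-Hochberg adjustment over all genes tested. The standard error of a log2 difference is its size divided by the square root of the test's F; CPM use TMM-scaled library sizes that include mitochondrial reads. DESeq2 1.42.0 and limma-voom (limma 3.58.1), no low-count filter, no scaling factors, mitochondrial genes left out, no robust dispersion, fits of only the diets compared, a replicate block and leaving out each library were alternatives. The procedure was checked on simulated counts.

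Members, pathway lists and tests were chosen with earlier results of these data known. Members described in full are, per tissue, those past the adjusted threshold, the 6 of smallest unadjusted p in each comparison and the 2 highest of each enzyme class per kilobase. From each pathway list the called genes are named, or else the 2 of smallest p. No pair of libraries of a diet agreed within sampling noise (chi-square per degree of freedom at least 29.6 in liver and 12.7 in kidney). RefSeq promoters (GRCm38.p6) and GENCODE M21 coding sequences were matched by symbol, 36 and 40 of 40 symbols having one. Positions of liver rows were shifted by 1 base to match the kidney table, after which 77.1% of 31812 shared genes had the same start.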

Additional observations from a re-analysis of the deposited data

Results flagged for a closer look

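Within groups of 4 to 10 libraries, 7 of 93 groups of the named members held a library far from its neighbours by Dixon's criterion; chance gives about 1 in 20. In liver, Gstm3 in control library 0 measured 215 CPM, the next control library 24.8 CPM, and Gstm2 in the same library 29.3 CPM, the next 11.2 CPM. Sult2a7 in liver high-fat library 1 measured 1.57 CPM, the next 0.727 CPM. In kidney, Sult1c2 in ketogenic library 1 measured 31.3 CPM, the next 21.5 CPM. Ugt2b37 in kidney ketogenic library 6 measured 38.5 CPM, the next 27.1 CPM. Sult1d1 in kidney high-fat library 2 measured 320.0 CPM, the next 254 CPM. Ugt1a5 in kidney high-fat library 4 measured 0.801 CPM, the next 0.488 CPM.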

How the results depend on the processing

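For 36 named pairs of gene and comparison, 27 alternatives each gave 972 values, of which 971 kept their direction. The exception was liver Gstm1 for high-fat against control, at -0.0800 without control 0, high-fat 2 and high-fat 3, an alternative added after seeing the data. The count of members called stayed at 0 in liver in every alternative run. In kidney it became 2 with DESeq2 for ketogenic against control (Gsta2 and Ugt2b37). For ketogenic against high-fat it became 1 with DESeq2 and 1 with only the 2 diets compared, and ran from 0 to 1 when single libraries were left out, 1 being reached without control library 4. In the joint test it became 1 with DESeq2, 1 with limma-voom and 1 without robust dispersion, and ran from 0 to 1 when single libraries were left out, 1 being reached without control library 4 and without high-fat library 2. The member behind each of these was Gsta2, and the cause was not tested. Over all kidney genes DESeq2 called 0.697% for ketogenic against control, 0.199% for ketogenic against high-fat and 0.677% in the joint test. Shares over all genes for the other settings that called Gsta2 are not given here, so those calls have no background beside them. Without the 3 libraries 0 members were called in each comparison, with 36, 1 and 14 kidney genes called for ketogenic against control, high-fat against control and ketogenic against high-fat.

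Same-numbered libraries of a tissue deviated together with correlations of -0.22 to 0.39. In none of 6 comparisons were all pairs over 0.1 or did all correlate best with their own number. In kidney, 5 of 6 pairs of ketogenic and high-fat libraries were over 0.1, and in each other comparison 2 or 3 pairs were. Same-numbered titles are not stated to be paired, and whether such libraries share a batch was not tested. With a replicate block 0 members were called in every comparison. Over all genes the block gave 81 liver genes for ketogenic against control (0 without it), 0 for both other pairs and 21 in the joint test, and 55, 4, 3 and 28 kidney genes (49, 2, 7 and 33 without it).

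Members with few reads are limited by depth: liver Sult2a7 had 1 to 56 reads per library and kidney Ugt1a5 7 to 42. Mitochondrial reads left 6.48 M nuclear reads in the shallowest kidney library.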
